A study of Homo sapiens with 12 samples.

Results

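A group of 8 transcripts that had risen after siRNA treatment was followed across the 12 RNA sequencing libraries made from A498, a line of human renal carcinoma cells. They are ZNF469, ERMP1, GALNT9, PSKH1, SLC16A13, CPA4, SLCO2B1 and RAPGEF2, which makes 8 of the 57773 genes in the deposited table, and all 8 passed the filter on low values that left 18648 genes for testing. The question was which rises follow the siRNA against ELOVL2, which follow the siRNA against ELOVL5 and which need both. An siRNA is a double-stranded RNA that directs the cleavage of transcripts with its sequence. ELOVL2 and ELOVL5 are membrane enzymes that lengthen polyunsaturated fatty acids.

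The groups were A498 cells given a control siRNA (control), an siRNA against ELOVL2 (siELOVL2), an siRNA against ELOVL5 (siELOVL5) or both (double), with 3 biological replicates each. All libraries carry the same batch label. The labels give no siRNA sequence, dose or time of harvest, so effects of a target's loss and other effects of the same duplex cannot be told apart here. Values are quantile-normalized read counts, called normalized counts below, which total 8.525 M in every library; the estimated depth before that step was 6.70 to 10.7 M reads. Read against the labels, ELOVL2 stood between 18.4 and 30.1 normalized counts in the 6 libraries given its siRNA and between 165 and 299 in the others, and ELOVL5 stood between 141 and 187 in the 6 libraries given its siRNA and between 1791 and 2328 in the others. All 8 markers listed for renal carcinoma cells were detected, among them PAX8 at 511 to 676.5 normalized counts and KRT8 at 5179 to 8969, with CA9 low at 2.08 to 29.1. Their summed level was 35746 to 36230 in control and 28595 to 29479 in siELOVL2 libraries. It was 28076 to 34456 in siELOVL5 and 26384 to 30567 in double libraries. In these 4 groups VIM had means of 21271, 15105, 18621 and 14364, and CDH6 of 2529, 1148, 1566 and 915.5. CDH6 ranged from 247 to 3863 over single libraries. KRT8 had means of 6169, 7522, 5494 and 7518, and KRT18 of 2348, 2818, 2209 and 2878. By log2 fold change over control, 2 of the 8 markers were above 0 and 6 below in siELOVL2 and in double cells. Under 5 normalized counts in every library were 4 of 6 leukocyte, 3 of 4 endothelial and 2 of 6 fibroblast markers, with CD3E and LUM at 0, while CD68 was at 285 to 451, COL1A1 at 249.6 to 436 and ACTA2 at 116 to 202. The summed leukocyte markers ranged from 295 to 455 and the summed fibroblast markers from 524 to 704, and the part of these differences in the results below was not tested.

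The 8 genes were chosen by their normalized counts in these same libraries. ZNF469, ERMP1 and GALNT9 had been named as rises of siELOVL2 over control, and CPA4, SLCO2B1 and RAPGEF2 were the 3 genes called higher in siELOVL5 than in control cells. The share of tested genes called higher was 0.547% for siELOVL2 and 0.0161% for siELOVL5, shares that the choice of members used. Which comparison picked PSKH1 and SLC16A13 is not recorded, so no test is given for them. For the other 6, the changes over control are given as a description, and a test is given only for the difference between the other 2 groups. The estimate of that difference uses none of the libraries of the naming comparison, but its p-value does, because limma takes the spread from all 12 libraries. Whether the choice also drew on the other libraries is not recorded, so these tests may not be independent of it. In bulk RNA, fewer cells of one state and less RNA per cell cannot be told apart. A gene is called when limma's adjusted p lies under 0.05, and fold changes are on the log2(value + 1) scale.

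The 8 genes have no common pathway. ZNF469 encodes a large zinc finger protein, and inherited loss of it thins the collagen of the cornea. ERMP1 is a metallopeptidase of the endoplasmic reticulum, GALNT9 is a Golgi enzyme that starts mucin-type O-glycans, and PSKH1 is a serine kinase of the calmodulin-dependent kinase group. SLC16A13 belongs to the monocarboxylate carriers and SLCO2B1 to the carriers that take up organic anions. CPA4 is a secreted zinc carboxypeptidase, and RAPGEF2 is an exchange factor that switches on RAP GTPases, which act on adhesion and cell junctions.

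Of the 8 genes, 6 have RefSeq start sites in the promoter table (GRCh38.p14), with 10 windows of 300 bases in all, each from 250 bases before the start to 50 after. ZNF469 and SLC16A13 have no entry. Printed here are 3 windows, the first because it is the only window of a gene that rose with the ELOVL5 siRNA to hold one of the 8 motifs searched, the other 2 because ERMP1 and GALNT9 both rose with the ELOVL2 siRNA. Capitals mark the match to TGACNNNGC, the core letters of the antioxidant response element; the match in GALNT9 lies on the opposite strand.
CPA4, chr7:130292911-130293210, plus strand: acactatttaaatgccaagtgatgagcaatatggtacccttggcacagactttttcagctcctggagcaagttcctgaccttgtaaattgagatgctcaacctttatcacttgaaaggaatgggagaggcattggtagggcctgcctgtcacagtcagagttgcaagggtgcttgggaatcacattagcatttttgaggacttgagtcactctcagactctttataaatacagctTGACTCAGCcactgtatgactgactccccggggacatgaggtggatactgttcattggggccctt
ERMP1, chr9:5833068-5833367, minus strand: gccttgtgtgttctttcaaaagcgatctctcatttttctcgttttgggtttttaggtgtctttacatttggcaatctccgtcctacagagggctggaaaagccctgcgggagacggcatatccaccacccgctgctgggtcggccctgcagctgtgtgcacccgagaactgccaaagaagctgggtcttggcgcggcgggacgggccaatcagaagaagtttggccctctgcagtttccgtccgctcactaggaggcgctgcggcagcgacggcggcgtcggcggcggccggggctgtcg
GALNT9, upstream start, chr12:132329540-132329839, minus strand: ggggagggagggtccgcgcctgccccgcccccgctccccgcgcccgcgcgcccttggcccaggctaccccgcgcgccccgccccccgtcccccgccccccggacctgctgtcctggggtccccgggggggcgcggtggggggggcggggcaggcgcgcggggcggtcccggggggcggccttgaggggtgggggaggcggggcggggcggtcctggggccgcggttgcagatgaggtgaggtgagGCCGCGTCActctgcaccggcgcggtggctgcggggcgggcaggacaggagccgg
The CPA4 match is TGACTCAGC, which begins 15 bases before the start site, and the GALNT9 match is read as GCCGCGTCA on the printed strand and begins 5 bases before it. The motif occurs in 13.3% of the 35116 windows in the table. A second GALNT9 window held the E-box CACGTG, which 7.26% of windows hold. On both strands and in all 10 windows there was no match to the amino acid response element TGATGNAA (3.62% of all windows), the interferon-stimulated response element (GAAA, any 2 bases, GAAA; 3.57%), the sterol response element TCACCCCAC (0.430%), the heat shock element (GAA, TTC and GAA, each 2 bases apart; 0.490%), the unfolded protein response element TGACGTGG (0.729%) or the cyclic AMP response element TGACGTCA (1.85%). The windows differ in base composition. CPA4 holds 1 CpG and the 2 SLCO2B1 windows hold 2 and 5, against 25 in ERMP1, 38 in PSKH1, 39 and 15 in GALNT9 and a median of 14 over all windows; RAPGEF2 has 38 at its first start and 2 and 3 at the others.

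**Figure D1:**
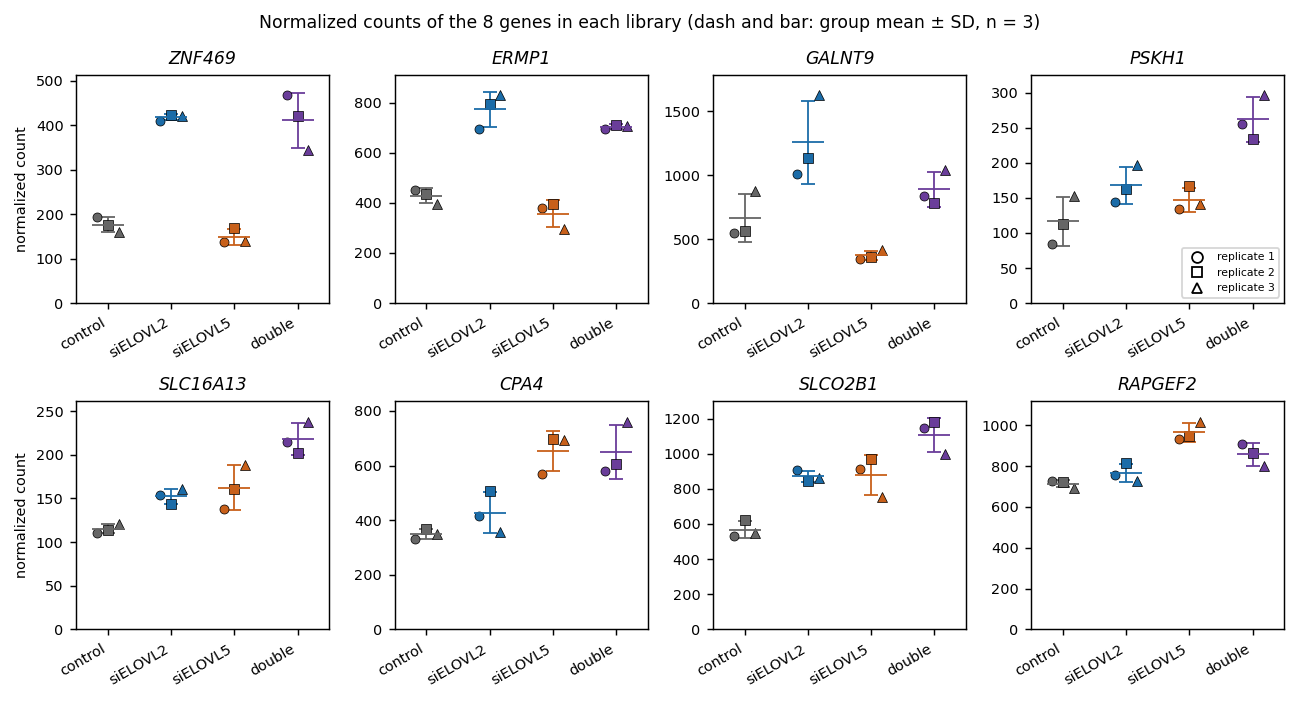
Normalized counts (y axis, from 0) of each gene in the 4 groups; symbols mark replicates 1 to 3, and the dash with its bar is the group mean ± SD (n = 3). ZNF469 and ERMP1 are high in siELOVL2 and double libraries, CPA4 in siELOVL5 and double libraries, and PSKH1, SLC16A13 and SLCO2B1 reach their highest values in double libraries.

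ZNF469 and ERMP1 were high wherever the ELOVL2 siRNA was present and in no other library. ZNF469 was at 193, 176 and 160.5 normalized counts in control replicates 1, 2 and 3, at 409.7, 423 and 421 in siELOVL2, at 137, 169 and 139 in siELOVL5 and at 467, 421 and 345 in double libraries. Its lowest value with the ELOVL2 siRNA was 1.79 times its highest value without it. ERMP1 was at 453, 436 and 394 in control, 694, 796 and 829 in siELOVL2, 379, 395 and 296 in siELOVL5 and 694, 712 and 707 in double libraries, and the corresponding ratio was 1.53. This arrangement, with all 6 libraries given the ELOVL2 siRNA above all 6 others, was met by 3.51% of tested genes.

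GALNT9 combined a rise with the ELOVL2 siRNA and a lower level with the ELOVL5 siRNA. It was at 551, 562 and 879.8 normalized counts in control replicates 1, 2 and 3, at 1011, 1134 and 1625.5 in siELOVL2, at 347, 361 and 413 in siELOVL5 and at 841, 784 and 1041 in double libraries. All siELOVL5 libraries lay below all controls, which held for 7.04% of tested genes. Double against siELOVL2 gave a log2 fold change of -0.48 (95% interval -0.90 to -0.06), a description, with overlapping libraries. The control and double libraries overlapped, because control replicate 3 stood above 2 of the double libraries. Without control replicate 3, GALNT9 met the same arrangement as ZNF469 and ERMP1, which then held for 816 tested genes, against 654 with all libraries. Replicate 3 was the highest library of GALNT9 in each of the 4 groups, and the coefficient of variation reached 28.1% in control and 25.9% in siELOVL2 cells, against 9.17% and 1.76% for ZNF469.

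Against control, siELOVL2 changed ZNF469 by a log2 fold change of 1.24 (SE 0.12), ERMP1 by 0.85 (SE 0.11) and GALNT9 by 0.92 (SE 0.20). With siELOVL5 the values were -0.25 (95% interval -0.52 to 0.02), -0.27 (-0.51 to -0.03) and -0.80 (-1.22 to -0.37). Double cells stood 1.21, 0.72 and 0.44 above control. These comparisons share the control libraries that the choice of members used, and they are a description.

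**Figure D2:**
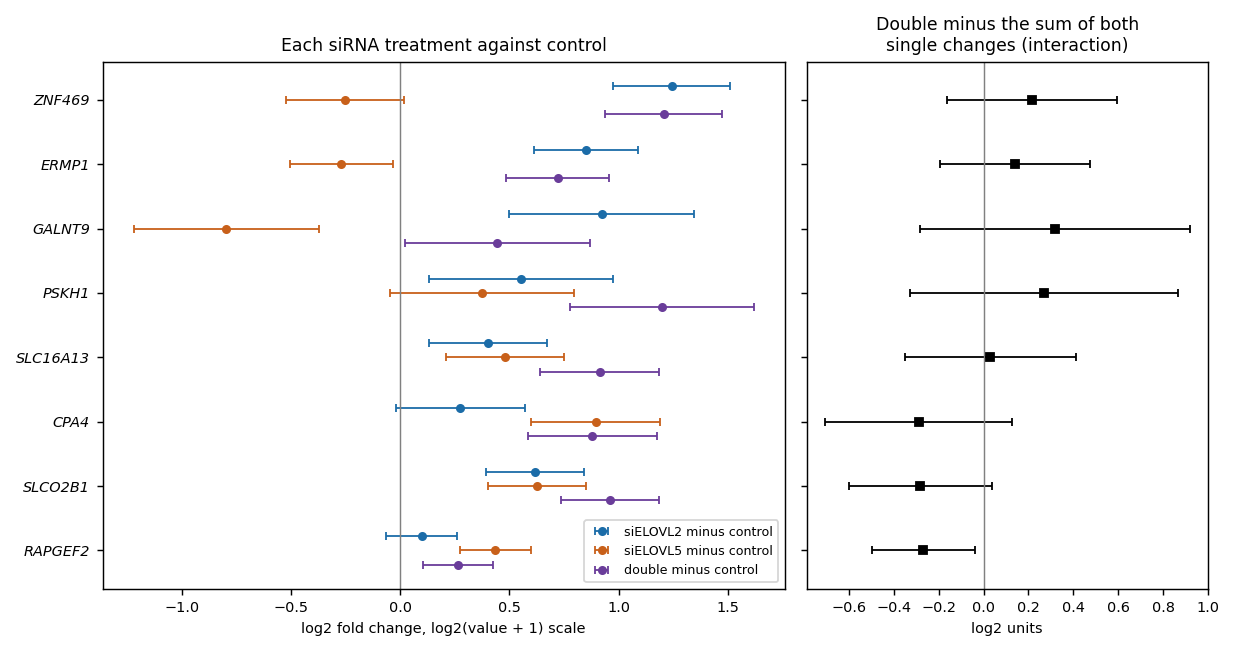
Log2 fold change over control of each gene with its 95% interval (left, x axis in log2 units, 1 point per siRNA treatment), and the interaction, the double change minus the sum of both single changes (right). For ZNF469, ERMP1 and GALNT9 siELOVL5 lies below 0 while siELOVL2 and double lie above. In the main fit shown, which ignores replicate numbers, the interaction interval spans 0 for all genes except RAPGEF2.

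All 3 genes were also higher with the ELOVL2 siRNA among cells that received the ELOVL5 siRNA (double against siELOVL5). ZNF469 rose by 1.46 (SE 0.12, 2.75-fold, limma adjusted p = 5.80e-05), GALNT9 rose by 1.24 (SE 0.20, 2.36-fold, adjusted p = 0.00583) and ERMP1 rose by 0.99 (SE 0.11, 1.99-fold, adjusted p = 5.31e-04). In each gene all 3 double libraries lay above all 3 siELOVL5 libraries, which held for 11.4% of tested genes. Called higher in this comparison were 1.36% of the 18648 genes. The 3 members were chosen as rises with the same siRNA, so their calls are no measure of enrichment over that share. Fitted on the siELOVL5 and double libraries alone, limma gave an adjusted p of 0.0341 for ZNF469, 0.0383 for GALNT9 and 0.0558 for ERMP1. In that fit ERMP1 was not called. In the other 19 alternative settings all 3 stayed called. Since the choice of members may have drawn on the double and siELOVL5 libraries too, these calls may not be independent of it. Genes called in either direction numbered 516 (2.77%), and 21 in the fit on these libraries alone. Without double replicate 1, 2 or 3 they numbered 182, 156 and 311, without siELOVL5 replicate 1 or 3 they numbered 228 and 789, and without siELOVL2 replicate 2 they numbered 323.

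**Figure D3:**
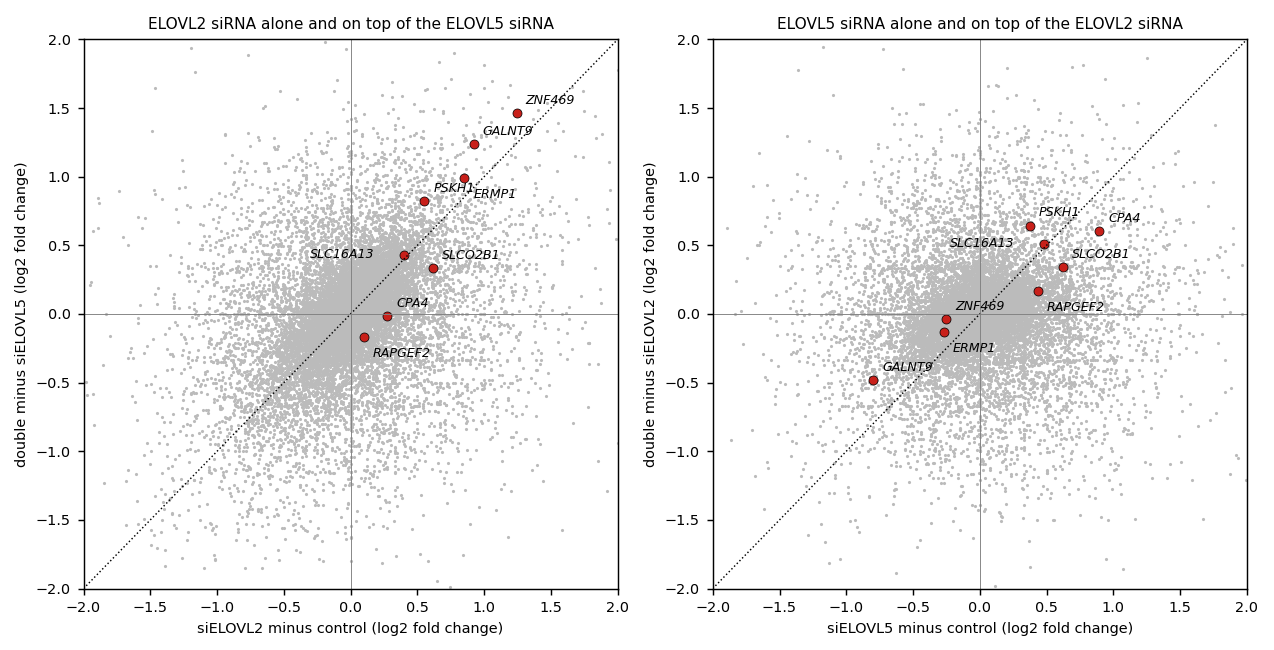
Log2 fold changes of all 18648 tested genes (grey) and the 8 members (red) for the ELOVL2 siRNA alone (x) and on top of the ELOVL5 siRNA (y) at left, and for the ELOVL5 siRNA likewise at right; the dotted line marks equal change, x and y share no library, and 46 and 21 genes lie outside the axes. ZNF469, GALNT9 and ERMP1 lie far up the line at left, and CPA4, SLCO2B1 and RAPGEF2 lie below the line at right.

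CPA4 was the gene that followed the ELOVL5 siRNA by its library arrangement, though its test, given below, was not called. It was at 332, 368 and 348 normalized counts in control replicates 1, 2 and 3, at 417, 506 and 357 in siELOVL2, at 569, 698 and 694 in siELOVL5 and at 579, 605.5 and 761 in double libraries. All 6 libraries with the ELOVL5 siRNA lay above the other 6, though by little: the lowest with it was 1.12 times the highest without it. Of all tested genes, 0.349% had this arrangement. The siELOVL2 and control libraries overlapped, with a log2 fold change of 0.27 (95% interval -0.02 to 0.57), against 0.90 (SE 0.14) for siELOVL5 over control and 0.88 for double over control.

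RAPGEF2 had the smallest change and a less clean separation. Control replicates 1, 2 and 3 were at 727, 722 and 693 normalized counts, siELOVL2 at 755, 813 and 726, siELOVL5 at 934, 945 and 1018, and double at 910.1, 865 and 799.6. Every siELOVL5 and double library lay above every control, which held for 6.07% and 13.4% of tested genes, but double replicate 3 stood just below siELOVL2 replicate 2. Without either of those libraries RAPGEF2 had the arrangement of CPA4. Genes with that arrangement numbered 129 without double replicate 3 and 89 without siELOVL2 replicate 2, against 65 with all libraries. The log2 fold change over control was 0.43 (SE 0.07) in siELOVL5, 0.26 in double and 0.10 (95% interval -0.06 to 0.26) in siELOVL2 cells. The double value lay below the sum of the single values: the interaction was -0.27 (SE 0.11), a description, since the libraries that named the gene enter it.

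SLCO2B1 had been named for its rise with the ELOVL5 siRNA, but it was as high with the ELOVL2 siRNA. It was at 529, 625 and 551 normalized counts in control replicates 1, 2 and 3, at 907, 845 and 862 in siELOVL2, at 912, 972 and 755 in siELOVL5 and at 1144.5, 1183 and 998 in double libraries. All 9 libraries with an ELOVL siRNA lay above the 3 controls (1.34% of tested genes), and the 3 double libraries lay above all 9 others (1.31% of tested genes). The change over control was 0.62 (SE 0.10) with siELOVL2, 0.63 (SE 0.10) with siELOVL5 and 0.96 (SE 0.10) with both. The direct difference of siELOVL2 and siELOVL5 was -0.01 (95% interval -0.23 to 0.22). The double value fell short of the sum of both by 0.28, with an interval of the interaction from -0.60 to 0.04. This is a description, since the libraries that named SLCO2B1 enter it.

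Among cells that received the ELOVL2 siRNA, these 3 genes were not called with the ELOVL5 siRNA (double against siELOVL2). CPA4 differed by 0.61 (95% interval 0.31 to 0.90, limma adjusted p = 0.520), SLCO2B1 by 0.34 (0.12 to 0.57, adjusted p = 1) and RAPGEF2 by 0.17 (0.0038 to 0.33, adjusted p = 1). For CPA4 and SLCO2B1 all 3 double libraries lay above all 3 siELOVL2 libraries, which held for 4.53% of tested genes, while for RAPGEF2 they overlapped. Limma called 0 genes higher (0%) and 11 lower (0.059%) in this comparison, and 672 had an unadjusted p under 0.05. None of the 3 genes was called in any of 20 alternative settings, the fit on the siELOVL2 and double libraries alone included; CPA4 came nearest, at an adjusted p of 0.222.

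PSKH1 and SLC16A13 reached their highest levels where both siRNAs were present. PSKH1 was at 83.6, 113.5 and 152 normalized counts in control replicates 1, 2 and 3, at 144, 162 and 197 in siELOVL2, at 134, 167 and 141.5 in siELOVL5 and at 256, 234 and 296 in double libraries. The single treatments each overlapped the controls, and the 3 double libraries lay above the other 9, which held for 1.31% of tested genes, the lowest of them at 1.19 times the highest of the rest. Without control replicate 3, all PSKH1 libraries with an ELOVL siRNA lay above the controls. That arrangement then held for 619 tested genes, against 250 with all libraries. SLC16A13 was at 111, 113.5 and 121 in control, 154, 144 and 160.2 in siELOVL2, 137, 161 and 189 in siELOVL5 and 215, 202 and 238 in double libraries. Here each single treatment lay wholly above control (12% of tested genes for siELOVL2, 6.07% for siELOVL5). All 9 treated libraries lay above control by a factor of at least 1.13 (1.34% of tested genes), and the 3 double libraries lay above the other 9 (1.31%).

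For both genes the interval of the interaction spanned 0. PSKH1 changed by 0.55 (SE 0.19) with siELOVL2, by 0.38 (SE 0.19) with siELOVL5 and by 1.20 (SE 0.19) with both, and the interaction was 0.27 (95% interval -0.33 to 0.86). SLC16A13 changed by 0.40, 0.48 and 0.91 (SE 0.13 each), and the interaction was 0.03 (95% interval -0.35 to 0.41). These values are a description. Over all genes limma called 0 interactions (0%), and 522 genes had an unadjusted p under 0.05. As a ratio, the PSKH1 interval ran from 0.798 to 1.82.

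The interaction of the 8 genes had both signs, and in the main fit its interval spanned 0 for all but RAPGEF2. For a gene named by a single treatment over control, that difference enters the interaction with a minus sign. The choice alone could thus lower that gene's interaction. ZNF469, ERMP1, GALNT9, PSKH1 and SLC16A13 had values from 0.03 to 0.32, of which that of SLC16A13 changed sign under some alternatives, and CPA4, SLCO2B1 and RAPGEF2 had values from -0.29 to -0.27. Across the 12 libraries, ZNF469 and ERMP1 ran together with a Pearson r of 0.97, and PSKH1 and SLC16A13 with an r of 0.88, while GALNT9 and RAPGEF2 had an r of -0.58. These correlations share the 4 groups and describe them.

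Compared per kilobase of annotated exon (GENCODE 29), the 8 transcripts stood at different control levels. GALNT9 was at 95.3 ± 26.8 normalized counts per kb (SD, n = 3), CPA4 at 88.3 ± 4.56 and ERMP1 at 65.5 ± 4.60. SLC16A13, SLCO2B1 and RAPGEF2 followed at 55.2 ± 2.53, 54.9 ± 4.86 and 53.8 ± 1.39, PSKH1 was at 29.3 ± 8.67 and ZNF469 was lowest at 13.3 ± 1.22. GALNT9 and CPA4 overlapped, as did SLC16A13, SLCO2B1 and RAPGEF2, and the lowest ERMP1 library and the highest SLCO2B1 library were both at 60.4. Exon length is that of all annotated exons joined, so a gene expressed as a short isoform is underrated.

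The genes most like each member over the 12 libraries were sought among 9323 tested genes, those above the median level of 93.8 normalized counts. ZNF469 was closest to HMOX1 (Pearson r = 0.99), the heme oxygenase that is a main target of the antioxidant factor NRF2, and next to NSF (0.98), a membrane fusion ATPase. HMOX1 was at 2820 ± 421 normalized counts in control, 15733 ± 2542 in siELOVL2, 1664 ± 221 in siELOVL5 and 14515 ± 4571 in double cells (SD, n = 3). ERMP1 was closest to the mitochondrial phosphate carrier SLC25A3 (0.99) and to NSF (0.97), and GALNT9 to SEPT9 and the pentose phosphate enzyme TKT (both 0.97). PSKH1 was closest to FAM102A (0.95) and DNAJC30 (0.94), and SLC16A13 to the collagen gene COL27A1 (0.95) and SCAMP3 (0.93). CPA4 was closest to UBE2R2 (0.94) and LMBRD1 (0.89), SLCO2B1 to FAM222B (0.97) and ENTPD6 (0.95), and RAPGEF2 to the mechanosensitive channel PIEZO1 (0.95) and the actin crosslinker FLNA (0.94). These values of r were taken over libraries that share the 4 groups. FLNA had an SD of 0 in control (37757) and in siELOVL5 (43592), since quantile normalization gives equal ranks equal values.

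None of the 8 genes is on the 7 lists of stress response genes used for comparison. The NRF2 list had a median log2 fold change of 0.35 in siELOVL2 and 0.39 in double cells, with 4 and 6 of 14 genes called higher by limma and 1 called lower in double cells, against 0.547% and 2.15% of all genes. In siELOVL5 cells its median was 0.02. The interferon list had a median of 0.98 and the ATF4 list of 0.47 in siELOVL5 cells, with 22 of 22 and 16 of 16 genes above control and 0 called by limma, though 19 and 6 had an unadjusted p under 0.05. In double cells these medians were 0.11 and -0.07. From siELOVL5 to double cells, CPA4 went from 654 ± 73.7 to 648 ± 98.2 normalized counts. RAPGEF2 went from 966 ± 45.7 to 858 ± 55.5, and SLCO2B1 from 880 ± 112 to 1108 ± 97.7 (SD, n = 3). The part of these programmes in the 8 rises was not tested.

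**Figure D4:**
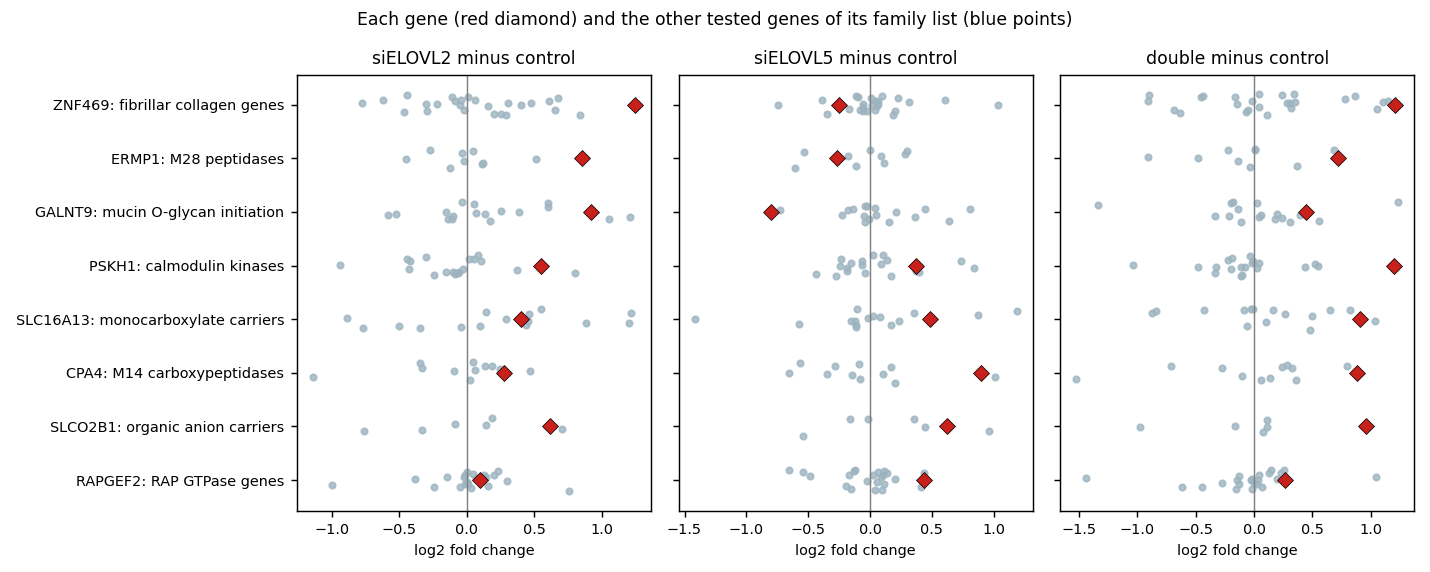
Log2 fold change over control (x axis) of each member (red diamond) and of the other tested genes of its family list (blue points), in siELOVL2, siELOVL5 and double cells. ZNF469 lies to the right of all of its list in siELOVL2 and double cells, and GALNT9 lies at the left edge of its list in siELOVL5 cells.

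Of the relatives of the 8 genes, more were called lower than higher after siELOVL2 and in double cells. The 8 lists hold 124 tested genes beside the members. After siELOVL2, limma called 1 of them higher and 3 lower, against 0.547% and 0.815% of all genes, and the median log2 fold change was 0.02, as over all genes (0.02). After siELOVL5 it called 0 (0.139% of all genes in either direction), with 11 of the 124 at an unadjusted p under 0.05, against 1783 of all 18648. In double cells 1 was higher and 7 were lower (2.15% and 2.27% of all genes), with a median of 0.00 against 0.02. At an unadjusted p under 0.05 were 26 of the 124 after siELOVL2 and 31 in double cells, against 2557 and 3505 of all 18648. The members were chosen for their rise, so the contrast between them and their lists is no finding.

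Within the monocarboxylate carriers, the lactate carrier SLC16A1 moved against SLC16A13. SLC16A1 fell from 1275 ± 35.3 normalized counts in control to 751 ± 65.0 in siELOVL2 and 699.9 ± 117 in double cells (SD, n = 3; log2 fold change -0.77 and -0.88, limma adjusted p = 0.00300 and 5.79e-04), and it was at 1297 ± 51.0 in siELOVL5 cells. It stayed called in all 20 alternatives. SLC16A7 rose by 0.44 in siELOVL2 cells (limma adjusted p = 0.0408), a call lost in 12 of 20 alternatives (adjusted p 0.0135 to 0.176), among them those without any 1 control or siELOVL2 library, siELOVL5 replicate 2 or double replicate 1 or 2. SLC16A11, the neighbour of SLC16A13 on chromosome 17, had means between 4.50 and 12.9 normalized counts.

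Among the genes around RAPGEF2, SIPA1L2, a GTPase activator that switches RAP proteins off, fell from 3132 ± 469 normalized counts in control to 1566 ± 183 in siELOVL2 and 1147 ± 37.6 in double cells (SD, n = 3; -0.99 and -1.44, limma adjusted p = 0.00517 and 1.87e-04), calls that held in all 20 alternatives. It was at 2252 ± 459 in siELOVL5 cells, where RAPGEF2 was highest. It was the only one of the 22 tested RAP genes beside RAPGEF2 that limma called against control; 5, 3 and 4 of the 22 had an unadjusted p under 0.05 in siELOVL2, siELOVL5 and double cells, against 2557, 1783 and 3505 of all 18648 genes. In the kinase list of PSKH1, CAMK4 (-1.04, limma adjusted p = 0.0296) and STK17B (-0.48, adjusted p = 0.0474) were called lower in double cells. These were lost in 7 and 12 of 20 alternatives (adjusted p up to 0.111 and 0.171). CAMK4 was lost without any 1 control or double library, and STK17B without any 1 double library or replicate 1 or 2 of any other group.

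Collagen genes gave a mixed picture beside ZNF469. COL27A1 rose by 0.34 in double cells (SE 0.06, limma adjusted p = 0.00511), from 1859 ± 23.2 to 2358 ± 87.7 normalized counts (SD, n = 3), in all 20 alternatives. COL5A1, a chain of collagen V, was called lower in siELOVL2 (-0.44, limma adjusted p = 0.0323) and double cells (-0.44, adjusted p = 0.0182), calls lost in 9 and 5 of 20 alternatives (adjusted p up to 0.171 and 0.0956). The first was lost without any 1 control or siELOVL2 library or double replicate 2, the second without control replicate 2 or 3 or double replicate 1 or 2. The crosslinking oxidase LOXL3 (-0.90, limma adjusted p = 0.0275) and the lysyl hydroxylase PLOD2 (-0.69, adjusted p = 0.0156) were called lower in double cells, calls lost in 5 and 3 alternatives (adjusted p up to 0.123 and 0.0796). LOXL3 was lost without control replicate 2 or 3 or double replicate 1 or 3, and PLOD2 without control replicate 2 or double replicate 2. The lists around ERMP1, GALNT9, CPA4 and SLCO2B1 had 0 calls by limma beside the members in any comparison with control, with 0 to 3 genes per list at an unadjusted p under 0.05.

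No neighbouring gene was called. Of 16 nearest protein-coding genes in RefSeq, 13 are in the table, 8 passed the filter on low values and limma called 0 against control, with 3 at an unadjusted p under 0.05 in at least 1 comparison. CTRL, which overlaps PSKH1 in RefSeq, had means from 0 to 3.31. The labels do not say whether counting used strand, so reads from overlapping genes cannot be told apart.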

How the data were processed

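RNA sequencing of 12 A498 libraries, 3 per siRNA treatment, was deposited as 1 table. The deposited values are a signal per gene: in all 12 columns the sorted values are identical and every value is a multiple of 1 over 12 (tolerance 1e-06), as quantile normalization of read counts gives. The aligner, counter and genome build: not given in the sources used here. Depth was estimated from the order of ties at counts of 20 to 60; that procedure and the fits were tested on simulated data.

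After adding 1 and taking log2, limma 3.58.1 (R 4.3.3) fitted group means of all 4 groups, an intensity trend and Benjamini-Hochberg adjustment within each comparison over the 18648 genes that reached 1 normalized count in 3 or more libraries. All p-values are two-sided. The members, lists and motifs were chosen with earlier results of these data known. Beside the members, genes were named by rule: up to 4 called genes per family list, the 2 most correlated genes and the nearest neighbours. Of 294 list entries, 290 matched by name, 3 by an older name and 1 not at all. Alternatives were another pseudocount (0.5 or 5), no filter or a minimum value of 10, median-ratio scaling, no trend, only the compared groups, a replicate block and each library left out.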

Additional observations from a re-analysis of the deposited data

How the results depend on the processing

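Of 1112 recomputed values for 56 changes of the members, 1 lost its call, ERMP1 in double over siELOVL5 when only those groups were fitted (0.99, adjusted p = 0.0558), and 14 changed sign, all of them described values near 0: CPA4 in double against siELOVL5, ZNF469 in double against siELOVL2, SLC16A13 and SLCO2B1 in siELOVL2 against siELOVL5, and the interaction of SLC16A13. Counts over all genes moved more, and the causes were not tested beyond the fewer samples fitted. Without the intensity trend the calls were 101 for siELOVL2 over control, 413 for double over control, 200 for double against siELOVL5, 21 for double against siELOVL2, 213 for siELOVL2 against siELOVL5 and 9 for the interaction. With only the compared groups they were 412 for siELOVL2 and 1 for siELOVL5 over control, 21 for double against siELOVL5, 1 for double against siELOVL2 and 49 for siELOVL2 against siELOVL5. With the replicate number as a block they were 861, 99 and 1866 for siELOVL2, siELOVL5 and double over control, 1368 for double against siELOVL5 and 1317 for siELOVL2 against siELOVL5. Without 1 library the ranges were 63 to 829, 9 to 41 and 323 to 1779 for siELOVL2, siELOVL5 and double over control, 156 to 789 for double against siELOVL5, 2 to 16 for double against siELOVL2 and 168 to 714 for siELOVL2 against siELOVL5. The genes with the arrangement of ZNF469 numbered 654, and 716 to 898 without 1 library. Those of CPA4 numbered 65 (71 to 129), those with double above all others 244 (253 to 677) and those with all treated libraries above control 250 (259 to 619). Leaving out a library cannot break such an arrangement, so among genes that pass the filter these counts can only stay or rise. Same-numbered libraries deviated together with a correlation above 0.1 in 14 of 18 pairs (0.01 to 0.62). Of the 12 libraries, 10 correlated best with their own number. The labels do not say that a number marks a shared batch, so the block was kept as an alternative. It changed no call of a tested member. For the interaction of GALNT9 (0.32) the SE was 0.13 with the block and 0.28 in the main fit. For that of SLCO2B1 (-0.28) it was 0.12 and 0.15. A gene without a read could hold up to 0.917 normalized counts, far below the members.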

Other observations

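The same arrangements in the falling direction were counted over the 18648 tested genes. All 6 libraries with the ELOVL2 siRNA lay below the other 6 for 457 genes (2.45%), and all 6 with the ELOVL5 siRNA lay below the others for 103 genes (0.552%). The 3 double libraries lay below the other 9 for 114 genes (0.611%), against 244 genes (1.31%) where they lay above, as for PSKH1, SLC16A13 and SLCO2B1. All 9 treated libraries lay below the controls for 327 genes (1.75%).

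The other stress lists gave these median log2 fold changes over control in siELOVL2, siELOVL5 and double cells. The 16 p53 targets were at 0.22, 0.09 and 0.18, with 1 called lower by limma in siELOVL2 and in double cells. The 14 hypoxia genes were at -0.25, 0.08 and -0.40, with 2 called lower in siELOVL2 and in double cells. The 15 genes of the unfolded protein response were at -0.01, 0.09 and 0.02, with 2 called lower in double cells. The 11 heat shock genes were at -0.11, -0.20 and -0.01, with 0 called by limma and 0, 4 and 1 at an unadjusted p under 0.05.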
